A study of Mus musculus with 8 samples.

Results

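Heat shock chaperones were followed in whole mouse skin as a set of 10 genes: Hspa1a, Hspa1b, Hspa8, Hsph1, Dnajb1, Hsp90aa1, Hsp90ab1, Hspb1, Hspd1 and Hspe1. Members were chosen by gene symbol, as the non-control array probes whose RefSeq accession belongs to one of these symbols, among 20284 genes named on the array. Of the 10 members, 9 had at least 1 probe and 14 probes in all, and all 14 probes passed the filter on dim signals. Hspa1b had no probe under its own accession and has no value here.

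Total RNA was measured on 8 one-colour oligonucleotide arrays, 4 of DTG mouse skin and 4 of Control mouse skin. Per its title, the series is about skin that overexpresses Musashi1, the RNA-binding product of Msi1. The labels do not spell out DTG, and the promoter driving the transgene, the strain and the age of the mice are not given in the sources used here. On Msi1 probe A_55_P2062688, levels were 3.85 to 4.16 on 3 DTG arrays and -5.92 to -1.48 on the 4 Control arrays, with the spot of DTG 1 left out as an outlier. The other Msi1 probe, A_51_P296866, showed no such gap, at -3.36 to -3.03 on DTG arrays and -3.36 to -2.80 on Control arrays. Levels below are log2 values after subtraction of each array's 75th percentile, and every fold change is DTG minus Control on that log2 scale.

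Heat shock proteins are molecular chaperones that hold, refold or hand on unfolded proteins. HSP70 proteins bind exposed stretches of their clients and work with J-domain partners, which bring clients and start ATP hydrolysis, and with exchange factors, which release the nucleotide. HSP90 proteins mature signalling clients, small heat shock proteins hold unfolding proteins in a soluble form, and the mitochondrial chaperonin folds imported proteins. The stress-inducible genes of these families are switched on by heat shock factor 1, which binds heat shock elements, built from the unit GAA and its complement TTC in alternating order. In the epidermis, HSPB1 is abundant in differentiating keratinocytes.

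The promoters of Hspa1a and Hspa1b are shown because they set the only member that rose beside the member without a probe. Both sequences below are the 250 bases before the transcript start on the minus strand, from RefSeq on GRCm38.p6, for Hspa1a chr17:34972157-34972406 and for Hspa1b chr17:34959239-34959488. Capitals mark the 2-unit heat shock element GAANNTTC.
Hspa1a: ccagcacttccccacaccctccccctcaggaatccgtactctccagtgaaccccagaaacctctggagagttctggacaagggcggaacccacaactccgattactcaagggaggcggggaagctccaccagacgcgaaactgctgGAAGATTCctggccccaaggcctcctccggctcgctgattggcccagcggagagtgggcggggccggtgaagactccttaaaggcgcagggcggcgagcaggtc
Hspa1b: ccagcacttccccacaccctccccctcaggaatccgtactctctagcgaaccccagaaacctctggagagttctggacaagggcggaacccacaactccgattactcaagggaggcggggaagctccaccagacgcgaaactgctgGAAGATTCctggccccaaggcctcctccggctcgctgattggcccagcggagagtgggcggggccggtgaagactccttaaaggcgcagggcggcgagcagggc
The 2 stretches differed at 3 of 250 bases, and the element began at position -104 in both, counted with the first transcribed base as 0. The probe counted as Hspa1a carries the Hspa1a accession, and how much Hspa1b transcript it also binds was not tested.

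Members that did not pass the test are shown beside them because their promoters hold heat shock elements too. The stretch chr1:55088028-55088107 (GRCm38.p6, plus strand, read toward Hspe1) lies in the promoter window of Hspe1 and in 1 of the 2 Hspd1 windows. In this stretch, capitals mark overlapping 2-unit elements of both orders, GAANNTTC and TTCNNGAA. In the Hspb1 stretch, chr5:135887779-135887858 (plus strand), capitals mark 2 separate GAANNTTC elements.
Hspd1-Hspe1: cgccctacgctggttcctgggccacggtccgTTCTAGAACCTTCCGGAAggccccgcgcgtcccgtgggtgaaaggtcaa
Hspb1: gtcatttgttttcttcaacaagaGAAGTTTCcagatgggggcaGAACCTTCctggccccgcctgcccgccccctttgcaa
Over all 32851 RefSeq promoter windows of 300 bases (250 before and 50 after a start), GAANNTTC occurred in 7.86% and TTCNNGAA in 8.52%. The longer 3-unit form GAANNTTCNNGAA, searched on both strands and containing both shorter forms, occurred in 0.603%. These letters are a match to a pattern and not a measured binding site. The 3-unit form was found in windows of Hspe1, Hspd1 and Hsph1. In Hsph1 it began after the start, at positions 36 and 15 of its 2 windows. The windows of Dnajb1 and the other Hspd1 window held none of these letters, and Hspa8, Hsp90aa1 and Hsp90ab1 had no window in the table.

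The arrays differed with the group before any gene was considered. Spots well above background made up 68.8 to 71.6% on DTG arrays and 79.5 to 85.1% on Control arrays. The mean log2 signal of negative-control spots was 4.27 to 4.69 on DTG arrays and 2.40 to 3.29 on Control arrays. The mean log2 signal of spike-in spots, minus the array's 75th percentile, was -0.0005 to 0.13 on DTG arrays. On Control arrays it was 0.19 to 0.84, so scaling on either one shifts the groups differently. All 8 arrays lay on 1 slide, DTG in row 2 and Control in row 1, so the row of the slide cannot be told apart from the group. All samples are labelled male, but Xist was high on 3 of 4 DTG arrays and 2 of 4 Control arrays, which goes against that label. Skin markers were present: 7 of 8 keratinocyte markers and 6 of 6 dermal fibroblast markers were above background on all arrays. The remaining keratinocyte marker, Krt15, had its DTG 2 spot left out as an outlier and was above background on the other arrays. In bulk tissue, fewer cells of a type and less RNA per cell cannot be told apart.

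Of the 9 measured chaperones, Hspa1a alone passed the test between DTG and Control skin, where it rose 1.74-fold in DTG. The test was limma's moderated test across 17741 genes, with Benjamini-Hochberg adjustment and calls at an adjusted p under 0.05. That is 1 of 9 members called, against 32.4% of all genes tested, with 1 member higher, against 11.1% of genes, and 0 lower, against 21.3%. The other 8 members had fold changes between -0.20 and 0.03. The median over the 9 members was -0.06, beside -0.15 over all genes. Fold changes under 0.2 in size were found in 7 of 9 members, and in 34.1% of all genes. The members were bright, with a mean level of 3.33 to 3.52 on DTG arrays and 3.25 to 3.59 on Control arrays. Their median SE was 0.11, beside 0.14 over all genes. The part of brightness in these shares was not tested.

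Hspa1a encodes the stress-inducible cytosolic HSP70, which refolds damaged proteins and is low in unstressed cells. Its levels were 2.96, 2.65, 2.25 and 2.42 on DTG arrays 1 to 4, and 1.73, 1.54, 2.12 and 1.69 on Control arrays 1 to 4. The lowest DTG value was above the highest Control value, and the narrowest gap was between DTG 3 and Control 3. Groups did not overlap in 34.6% of all genes tested. The group means were 2.57 ± 0.31 in DTG and 1.77 ± 0.25 in Control (SD, n = 4 each). The fold change was 0.80 (SE 0.18, 95% interval 0.39 to 1.21, limma adjusted p = 0.012), or 1.74-fold. With slide column as a block, each column holding 1 DTG and 1 Control array, the limma adjusted p was 0.043. In linear processed signal before scaling, the means were 24160 in DTG and 12614 in Control, far above background on all 8 arrays.

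The Hspa1a difference kept its direction within both classes of Xist level. In arrays of high Xist it was 0.93, between 3 DTG and 2 Control arrays. In arrays of low Xist it was 0.72, between 1 DTG and 2 Control arrays. With Xist class as a covariate it was 0.85 (limma adjusted p = 0.010).

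**Figure D1:**
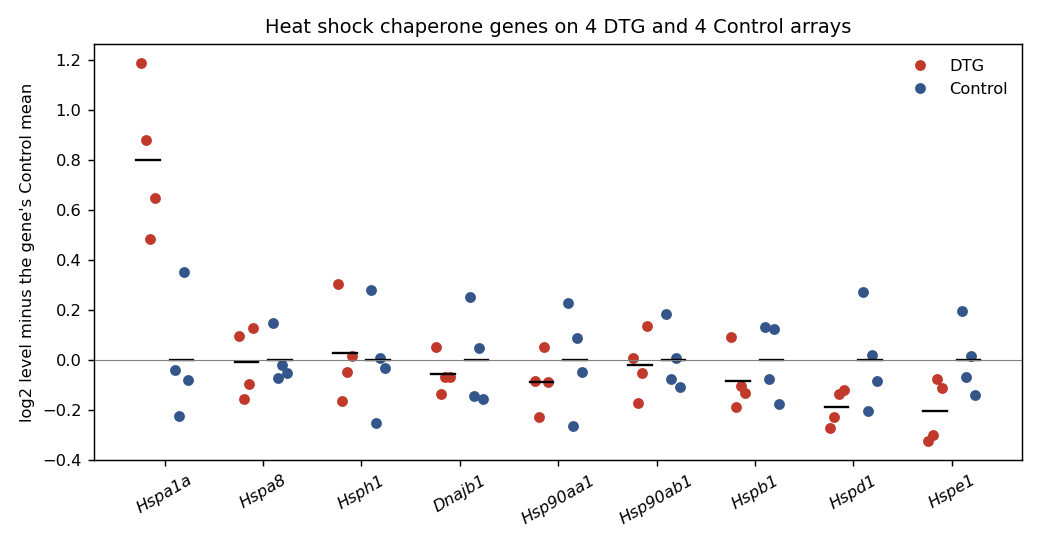
Level of 9 heat shock chaperone genes on each array, as log2 level minus the gene's Control mean (y axis), with DTG left of Control for each gene, 1 point per array and a bar at the group mean. The 4 DTG points of Hspa1a lie above all 4 Control points, with a mean difference of 0.80, while the groups overlap for the 8 other genes.

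Hspa8 encodes the constitutive cytosolic HSP70, a housekeeping chaperone that also strips clathrin from vesicles. On its brightest probe, levels were 4.57, 4.32, 4.38 and 4.60 on DTG arrays 1 to 4, and 4.62, 4.40, 4.45 and 4.42 on Control arrays 1 to 4. The groups overlapped throughout, and the fold change was -0.01 (SE 0.10, 95% interval -0.24 to 0.22, limma adjusted p = 0.96). On this probe the interval leaves out a fold change of 0.80, the estimate for Hspa1a, whose own interval was 0.39 to 1.21. The dimmest Hspa8 probe, given below, read 1.06.

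The change of Hspa1a was set against that of Hspa8 within each array, so that a factor common to the whole array drops out. Hspa1a minus Hspa8 was -1.61, -1.67, -2.13 and -2.18 on DTG arrays 1 to 4, and -2.89, -2.86, -2.33 and -2.74 on Control arrays 1 to 4. All 4 DTG arrays again lay above all 4 Control arrays. The difference was 0.81 (exact two-sided permutation p = 0.0286, the smallest that 4 against 4 arrays can give). Adjusted over the 3 pairs of members compared in this way the exact permutation p was 0.086, which does not pass. With the probes of a gene averaged, the difference was 0.46.

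Hsph1 encodes HSP110, which acts as a nucleotide exchange factor for HSP70 and is itself stress-inducible. On its brighter probe, levels were 2.68, 2.21, 2.33 and 2.39 on DTG arrays 1 to 4, and 2.65, 2.12, 2.38 and 2.34 on Control arrays 1 to 4. The groups overlapped, and the fold change was 0.03 (SE 0.14, 95% interval -0.30 to 0.35, limma adjusted p = 0.90).

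Dnajb1 encodes the J-domain partner of inducible HSP70. Its levels were 3.60, 3.41, 3.48 and 3.48 on DTG arrays 1 to 4, and 3.80, 3.40, 3.60 and 3.39 on Control arrays 1 to 4. All 4 DTG arrays lay within the range of the Control arrays. The fold change was -0.06 (SE 0.11, 95% interval -0.31 to 0.20, limma adjusted p = 0.72).

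The HSP90 paralogs, stress-inducible Hsp90aa1 and constitutive Hsp90ab1, did not pass either. Hsp90aa1 was at 3.55, 3.41, 3.69 and 3.55 on DTG arrays 1 to 4, and at 3.87, 3.37, 3.73 and 3.59 on Control arrays 1 to 4, a fold change of -0.09 (SE 0.12, 95% interval -0.37 to 0.19, limma adjusted p = 0.61). Hsp90ab1 was at 4.66, 4.48, 4.60 and 4.79 on DTG arrays 1 to 4, and at 4.84, 4.58, 4.66 and 4.55 on Control arrays 1 to 4, a fold change of -0.02 (SE 0.10, 95% interval -0.26 to 0.22, limma adjusted p = 0.90). Both pairs of groups overlapped. Hsp90aa1 minus Hsp90ab1 differed by -0.07 between DTG and Control (exact two-sided permutation p = 0.514, adjusted over the 3 pairs 0.771).

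Hspb1 encodes the small heat shock protein of keratinocytes. It was at 3.87, 3.59, 3.67 and 3.65 on DTG arrays 1 to 4, and at 3.91, 3.70, 3.90 and 3.60 on Control arrays 1 to 4. The groups overlapped, with a fold change of -0.08 (SE 0.11, 95% interval -0.33 to 0.16, limma adjusted p = 0.57). Of the 8 keratinocyte markers, 4 fell, against 21.3% of all genes, and 1 rose, against 11.1%. The mean levels of these markers were 3.32 to 3.59 on DTG arrays and 3.50 to 3.97 on Control arrays. Their part in the Hspb1 value was not tested.

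Hspd1 and Hspe1 encode the barrel and the lid of the mitochondrial chaperonin and are neighbouring genes read in opposite directions. Hspd1 was at 2.83, 2.87, 2.96 and 2.98 on DTG arrays 1 to 4, and at 3.37, 2.89, 3.12 and 3.01 on Control arrays 1 to 4, a fold change of -0.19 (SE 0.12, 95% interval -0.45 to 0.07, limma adjusted p = 0.23). Hspe1 was at 2.98, 3.01, 3.23 and 3.20 on DTG arrays 1 to 4, and at 3.50, 3.24, 3.32 and 3.17 on Control arrays 1 to 4, a fold change of -0.20 (SE 0.11, 95% interval -0.45 to 0.04, limma adjusted p = 0.18). These were the lowest fold changes of the 9, both close to the median of all genes, and their groups overlapped. Hspd1 minus Hspe1 differed by 0.02 (exact two-sided permutation p = 0.886, also after adjustment over the 3 pairs).

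Of the 9 measured members, 3 had more than 1 probe, and for all 3 the dimmest probe had the fold change farthest from 0. The dimmest Hspa8 probe, A_52_P12877, was at 2.59, 2.48, 1.27 and 2.13 on DTG arrays 1 to 4, and at 0.83, 0.81, 0.99 and 1.60 on Control arrays 1 to 4. Here DTG 3 fell below Control 4, and the fold change was 1.06 (SE 0.30, limma adjusted p = 0.029 over 23176 probes). It was the only probe besides that of Hspa1a to be called among the 14, against 31.4% of all probes and 11.6% called higher. Groups did not overlap in 1 of the 14, the Hspa1a probe, against 33.8% of all probes. The remaining Hspa8 probe, A_55_P2080603, read -0.05 (SE 0.10), like the brightest.

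The dimmer Hsph1 probe, A_55_P2003513, was at 0.86, 0.45, 0.36 and 0.61 on DTG arrays 1 to 4, and at -0.17, -0.09, 0.04 and 0.48 on Control arrays 1 to 4. Control 4 lay within the DTG range, and the fold change of 0.50 (SE 0.17) did not pass (limma adjusted p = 0.052). The dimmest Hspe1 probe, A_55_P1953063, read -0.40 (SE 0.15, limma adjusted p = 0.070), and A_55_P2089358 read -0.17 (SE 0.11). Set within each array against the brightest probe of the same gene, the dimmest probes differed between groups by 1.07 for Hspa8, 0.48 for Hsph1 and -0.20 for Hspe1. Each of these had an exact two-sided permutation p of 0.0571, and 0.114 after adjustment over 8 comparisons. These probe comparisons were chosen after their values were seen, and where on the transcripts the probes lie was not analysed here.

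**Figure D2:**
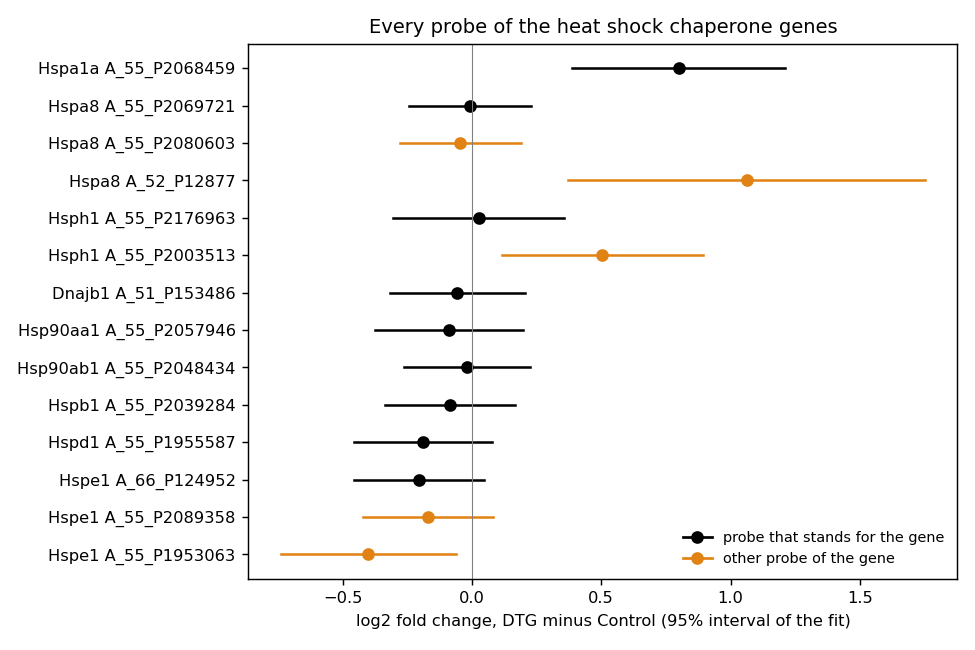
Log2 fold change (DTG minus Control, x axis) of each of the 14 probes of heat shock chaperone genes, with the 95% interval of the fit. Black marks the probe that stands for its gene and orange the other probes. Only Hspa1a A_55_P2068459 (0.80) and Hspa8 A_52_P12877 (1.06) were called, and the 2 other Hspa8 probes lie near 0.

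Among themselves the members also varied across samples in a way that the group labels do not follow. On the scale used, Control 1 was the highest Control array for all 8 members other than Hspa1a. For Hspa1a it was Control 3 that was highest. In signal before scaling, Control 1 was highest for 4 of the 8, and its 75th percentile, 11.69, was the lowest of all arrays. Hspa1a had the widest spread of the 9 members within DTG (SD 0.31) and within Control (SD 0.25), beside median SDs of 0.13 and 0.19 over the members.

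The 5 genes whose levels over the 8 arrays lay nearest to Hspa1a, each centred on its own Control mean, were Syt8, Rwdd4a, Cyp2b10, Lin9 and 4930548H24Rik. Their root mean square differences from Hspa1a were 0.11 to 0.15 on the log2 scale, among 17285 genes compared. Syt8, the nearest, was at -0.48, -0.66, -0.85 and -1.05 on DTG arrays 1 to 4, and at -1.61, -1.85, -1.31 and -1.73 on Control arrays 1 to 4. As with Hspa1a, DTG 1 was the highest array and Control 2 the lowest, a likeness that the choice by distance over these same arrays favours. None of the 5 is among the chaperone genes listed here. Rwdd4a is uncertain, since its second probe read -0.02 and its own value was -0.04 with another background correction.

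The count of chaperones called depends on the scale. Scaled on spike-in spots, the median of all genes was 0.33, and 30.6% of all genes were called higher and 2.33% lower. On that scale 5 of the 9 members were called, all higher: Hspa1a at 1.27, Hsph1 at 0.50, Hspa8 at 0.47, Hsp90ab1 at 0.45 and Dnajb1 at 0.42. With quantile scaling Hspa8 was called at 0.24 beside Hspa1a at 0.87, against 12.9% of all genes called higher. Hspa1a was called under all 20 alternative settings, at 0.67 to 1.27 (limma adjusted p from 0.0027 to 0.043).

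The wider chaperone network was read from 7 lists of 88 genes, 86 of them tested. In DTG skin 9 of the 86 rose and 12 fell, which is 24.4%, against 32.4% of all genes. The counts of each list below stand beside the same background of 11.1% of all genes called higher and 21.3% called lower. Their median fold change was -0.05, beside -0.15 over all genes.

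Heat shock factors are the transcription factors that bind heat shock elements. Hsf1, the main stress-responsive factor, was at 0.05, -0.11, 0.23 and 0.09 on DTG arrays 1 to 4, and at 0.73, 0.46, 0.59 and 0.35 on Control arrays 1 to 4. All DTG arrays were below all Control arrays, and Hsf1 fell by 0.47 (SE 0.12, limma adjusted p = 0.016). Hsf2 fell by 0.46 (SE 0.11, limma adjusted p = 0.015) and Hsf4, a factor of lens development, fell by 0.45 (SE 0.13, limma adjusted p = 0.029). Again there was no overlap, against 34.6% of all genes tested. On the spike-in scale these 3 genes read 0.00, 0.01 and 0.03, and on unscaled signal -0.35, -0.34 and -0.32, called on neither scale. With slide column as a block, Hsf2 (limma adjusted p = 0.051) and Hsf4 (limma adjusted p = 0.053) lost their calls. Hsf4 also lost its call without DTG 2, DTG 4, Control 1, Control 3 or Control 4, each left out alone (limma adjusted p 0.060 to 0.072). Hsbp1, whose product binds heat shock factor trimers, read 0.16 and did not pass (limma adjusted p = 0.39).

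J-domain co-chaperones held the 2 largest increases of the 7 lists, Dnajb9 and Dnajb4. Of 18 tested, 3 rose, 2 fell and 13 did not pass, which is 27.8% called, with a median of -0.01. Dnajb9, an endoplasmic reticulum J-protein that represses the stress sensor IRE1, was at 1.76, 1.56 and 0.997 on DTG arrays 1, 3 and 4, with the spot of DTG 2 left out as an outlier. It was at 0.27, -0.02, 0.42 and -0.08 on Control arrays 1 to 4. It rose by 1.29 (SE 0.21, limma adjusted p = 0.0041), and its other probe, A_66_P133450, read 3.34 (SE 0.25). Dnajc3, another endoplasmic reticulum J-protein, rose by 0.79 (SE 0.16), and cytosolic Dnajb4 by 1.19 (SE 0.23). In all 3 the groups did not overlap, against 34.6% of all genes tested. Dnajb14, of the endoplasmic reticulum membrane, fell by 0.39 (SE 0.11) and read 0.080 on the spike-in scale. It lost its call without DTG 1, DTG 2, Control 1, Control 2 or Control 3, each left out alone (limma adjusted p 0.053 to 0.074). The list's count of lower genes was 0 in these cases, against 14.4 to 18.2% of all genes. Its call was also lost without scaling (-0.27, limma adjusted p = 0.134) and with slide column as a block (limma adjusted p = 0.082). The other gene of the list to fall was Dnajc10, also of the endoplasmic reticulum, by 0.28 (SE 0.09, limma adjusted p = 0.037). Dnajb11, a further endoplasmic reticulum J-protein, read 0.04 (SE 0.10, limma adjusted p = 0.78). Dnajc10 and Dnajb11 were named after their values were seen.

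Among 19 other HSP70, HSP110 and exchange factor genes, 5 rose, 2 fell and 12 did not pass, which is 36.8% called, with a median of 0.06. Without DTG 4, or without Control 2, 3 rose, against 9.45% and 9.6% of all genes called higher in these settings. Hspa13, an HSP70 of microsomes, was at 1.59, 1.21 and 1.37 on DTG arrays 1, 3 and 4, and at 0.73, 0.27, 0.45 and 0.59 on Control arrays 1 to 4. The DTG 2 spot was an outlier and was left out. Hspa13 rose by 0.88 (SE 0.15, limma adjusted p = 0.0045), and its dimmer probe read 0.70 (SE 0.20). Averaged over both probes, where DTG 2 holds the dimmer probe alone, it read 0.30 and was not called. Hspbp1, a nucleotide exchange factor, rose by 0.58 (SE 0.11) and Bag2 by 0.45 (SE 0.10). Bag5, another BAG-domain cofactor of HSP70, fell by 0.63 (SE 0.08), and its second probe read -0.52 (SE 0.10). On the spike-in scale Bag5 read -0.16 and was not called (limma adjusted p = 0.44). Hspa5, the HSP70 of the endoplasmic reticulum, read 0.09 (SE 0.12, limma adjusted p = 0.60). Bag3, a stress-inducible HSP70 cofactor, read 0.06 (SE 0.12, limma adjusted p = 0.72). The last 2 were named after their values were seen.

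**Figure D3:**
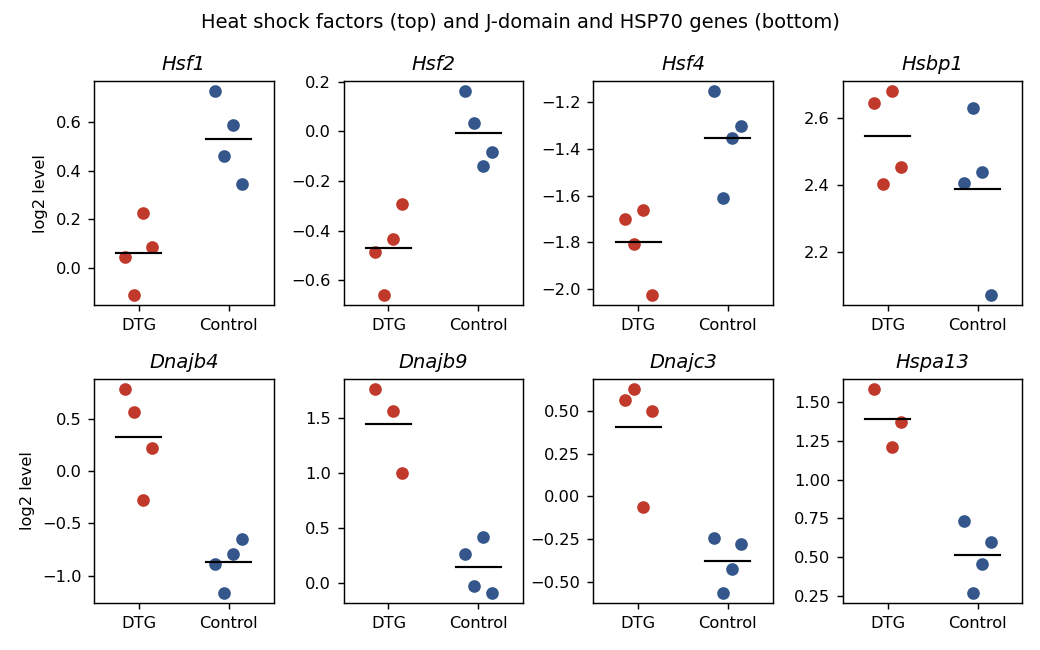
Log2 level relative to the array's 75th percentile (y axes, each panel with its own range) on 4 DTG and 4 Control arrays, 1 point per array, bar at the mean, DTG on the left. The top row holds Hsf1, Hsf2, Hsf4 and Hsbp1, and the bottom row Dnajb4, Dnajb9, Dnajc3 and Hspa13, where Dnajb9 and Hspa13 have 3 DTG points. The groups overlap only for Hsbp1, while they did not overlap in 34.6% of all genes tested. The genes of the bottom row were picked among called genes.

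Of 15 HSP90 co-chaperones and related HSP90 genes, 0 rose and 1 fell, which is 6.67% called, with a median of -0.05. Stub1, a ubiquitin ligase that marks chaperone clients for breakdown, fell by 0.32 (SE 0.08, limma adjusted p = 0.021), and read 0.15 on the spike-in scale. Its call was lost without DTG 2 or without Control 3 (limma adjusted p 0.057 and 0.062), without scaling (-0.20, limma adjusted p = 0.22) and with slide column as a block (limma adjusted p = 0.061). The cytosolic chaperonin CCT and prefoldin list had 1 higher and 1 lower of 13, which is 15.4% called. Cct3, a chaperonin subunit, rose by 0.54 (SE 0.10) and Pfdn5, a prefoldin subunit, fell by 0.53 (SE 0.10). On the spike-in scale Pfdn5 read -0.06 and was not called (limma adjusted p = 0.77). Of 8 mitochondrial proteases and import partners 0 were called, with a median of -0.22.

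Of 9 other small heat shock proteins, 3 fell and 0 rose, which is 33.3% called, all lower, against 21.3% of all genes, with a median of -0.18. Hspb2, a small heat shock protein of muscle, fell by 0.60 (SE 0.14) and Hspb11, which despite its name is a ciliary transport protein, by 0.55 (SE 0.09). Cryaa, the lens alpha-crystallin, fell by 1.34 (SE 0.34), with 2 of 4 DTG arrays above background, and its other probe read -0.08 (SE 0.56). With both probes averaged Cryaa read -0.71 and was not called (limma adjusted p = 0.191). On the spike-in scale 0 of the 9 were called, with Hspb2 at -0.13, Hspb11 at -0.08 and Cryaa at -0.87. Hspb2 also lost its call without scaling (-0.48, limma adjusted p = 0.080). Of 10 skeletal muscle markers 3 fell, against 21.3% of all genes, 0 rose and 7 did not pass, with a median of -0.23. Their mean level was 3.05 to 3.23 on DTG arrays and 3.25 to 3.47 on Control arrays. The part of muscle content in the Hspb2 value was not tested.

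**Figure D4:**
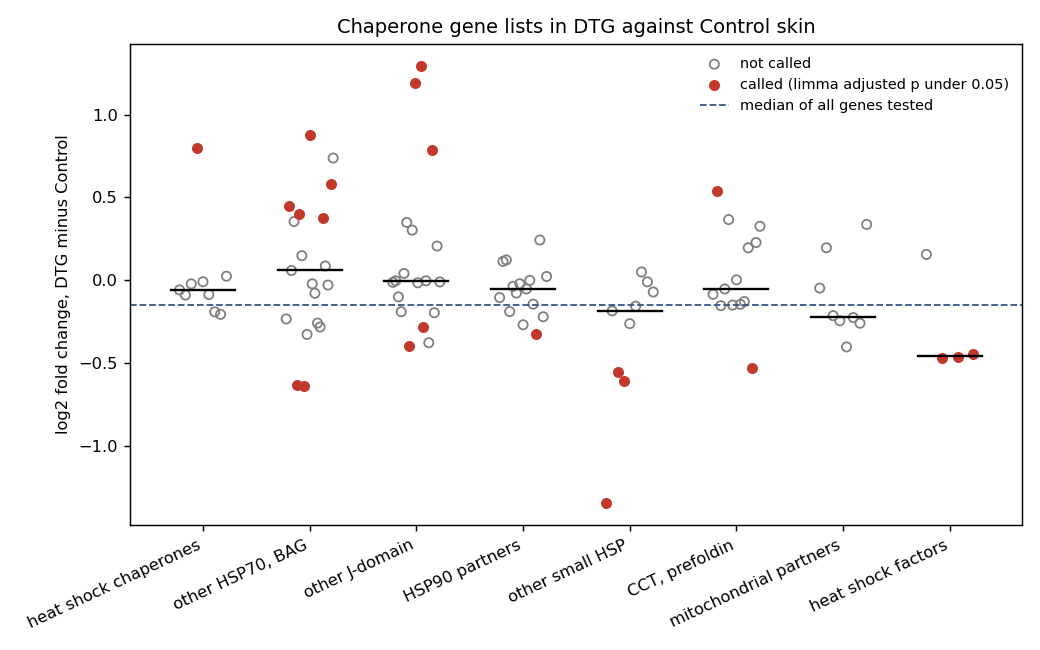
Log2 fold change (DTG minus Control, y axis) of each gene of the heat shock chaperones and of 7 other chaperone lists, 1 point per gene, filled where called, with a bar at the list median. The dashed line is the median of all genes tested, -0.15. Hspa1a is the only filled point of the first list, and the heat shock factor list holds 3 filled points near -0.45.

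Immediate early genes, which respond fast to many stimuli including tissue handling, were read beside Hspa1a as another rapidly induced group. Of 20 tested, 7 rose and 0 fell, which is 35.0% against 32.4% of all genes called and 11.1% called higher. Without DTG 1, 4 rose, against 8.92% of all genes called higher in that setting. On the spike-in scale 16 rose, against 30.6% of all genes called higher. With the settings used, the mean level of the list was 0.76 to 1.12 on DTG arrays and 0.33 to 0.58 on Control arrays, without overlap. Taken singly, 34.6% of all genes tested did not overlap, and the mean levels of the skeletal muscle markers did not overlap either. Whether tissue handling had a part in the Hspa1a value was not tested.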

How the data were processed

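The authors deposited, for each array, a scanner table of spot intensity, not logged. The software was Agilent Feature Extraction, as 11.5.1.1 in the file headers but as 10.7 in the submitters' processing notes. The processed signal, background-corrected and spatially detrended per the file headers, was used. The authors deposited outlier and above-background flags in other columns of the same tables. Per the labels' protocols, RNA was extracted with TRIzol, amplified and labelled with Cy3. The authors' deposited value table, a linear intensity for 43861 probes, served as an alternative (99.6% of its values within a relative tolerance of 0.001 of the scanner signal, thus neither logged, centred nor scaled).

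Outlier spots were left out, each probe's spots averaged on the log2 scale, and the 75th percentile subtracted. Probes above background on at least 3 arrays of a group were kept, and the brightest probe stood for a gene. Accessions were named through a RefSeq gene table (GRCm38.p6), which named 26762 of 55681 probes. The fit was limma 3.58.1 (R 4.3.3), two-sided, over all genes and 8 arrays, and was tested on simulated data. There, 14% of log2 changes of 0.5 in size were recovered, 70% of 1, 94% of 2 and 100% of 4, with 50 genes each. Among 17286 genes 8 were called falsely. The simulation held far fewer changed genes than were called in the real data, so these shares need not hold there. A gene not called can still have changed. The labels do not say how many animals the samples came from. Xist was high on some arrays and low on others within each group, so a group's arrays were not all of the same animal's RNA. The p-values measure the spread between these samples. The named genes are all members, up to 4 called genes with the smallest p in each chaperone list, all heat shock factor genes and the 5 genes nearest to Hspa1a. A few others are marked where named. Members and lists were chosen with earlier results of these data known. The number of arrays limits the precision, with a median SE of 0.14.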

Additional observations from a re-analysis of the deposited data

How the results depend on the processing

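Counts, medians, pair differences and the fold changes of members and genes named by rule, 56 results in all, were recomputed under 20 alternatives: 4 other scalings, normexp background correction of the median signal with an offset of 50, the authors' value table, 2 other filters, averaged probes, outlier spots kept, Xist class as a covariate, slide column as a block, and each of 8 arrays left out. Cryaa had no value with the filter of all 8 arrays. Single-probe values, Hspa5, Bag3, Dnajc10, Dnajb11 and marker lists were not recomputed. Hspa1a stayed called and higher in DTG in all 20, at 0.67 to 0.92 without 1 array. Called genes numbered 5756 with the settings used and 3830 without scaling. The share of calls lower in DTG was 65.7% with the settings used, 41.7% without scaling, 54.7% with no filter and 7.09% on the spike-in scale. With quantile scaling 2 members were called and the members' median was 0.10. On the spike-in scale these were 5 and 0.42, with 30.6% of all genes called higher. Sign changes of values called with either setting came with other scaling or background correction: Hspa8 at 0.24 (quantile scaling) and 0.47 (spike-in scale), and with spike-in scaling also Dnajb1 at 0.42, Hsp90ab1 at 0.45, Dnajb14 at 0.080, Stub1 at 0.15, Hsf1 at 0.0033, Hsf2 at 0.013 and Hsf4 at 0.028. Rwdd4a read -0.042 with normexp correction. Members not called with either setting also changed sign around 0. Hspa8 changed sign in 9 alternatives, the called ones included, and read 0.34 with averaged probes. Without 1 array Dnajb1 reached 0.03 and Hsp90ab1 0.04. The spike-in scale moves each array by 1 number, so it shifts all genes alike. On it the other chaperone lists had 11 higher and 0 lower of the HSP70 list, 10 and 0 of the J-domain list, 7 and 0 of the HSP90 list, 6 and 0 of the CCT list, and 0 lower of the small heat shock list. J-domain genes called higher numbered 6 with quantile scaling, and 5 with averaged probes or the authors' table. The shares of all genes called higher in these settings were 12.9%, 11.6% and 12.2%. With slide column as a block 1 heat shock factor was called lower, against 15.9% of all genes. Immediate early genes called higher numbered 4 without DTG 1, and HSP70 genes called higher 3 without DTG 4 and 3 without Control 2. All genes called higher were 8.92%, 9.45% and 9.6% in these 3 settings. The cause of these changes was not tested. No paired analysis was possible because the labels give no replicate numbers. The block on slide column joined arrays by position on the slide only.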
